A study of Mus musculus with 6 samples.

Results

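The 10 genes described here encode receptors that were first known from natural killer (NK) cells: Klrd1, Klrk1, Klrc1, Klrc2, Klrb1c, Klrg1, Klre1, Klra3, Klra7 and Ncr1. They were taken by gene name from a table of 54532 genes, and all 10 names were found once. RNA came from bone marrow (BM) of C57BL/6 mice at day 100 after transplantation, in 3 libraries labelled Phf6 wild type (WT) and 3 labelled Phf6 knockout (KO), to ask what loss of the chromatin protein Phf6 does to T-cell acute lymphoblastic leukemia (T-ALL). In every library the donor progenitors had received a retrovirus encoding GFP and JAK3 M511I, a Janus kinase that is active without its normal trigger. In the study's methods KO donors were Vav1-Cre;Phf6 fl/y males, in which Cre is driven by the promoter of the blood cell gene Vav1, and WT donors were Phf6 fl/y males without Cre. Recipients were irradiated males, so cells that were not transduced can be present in BM. The labels do not say whether GFP+ cells were sorted before RNA extraction, nor that the libraries of a group came from separate mice, so p-values measure the spread between these libraries, which may be technical. The final digit of the gene symbol in the genotype labels rises within each group, and the genotype was read as Phf6, the gene in the design text.

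Of the 10 genes, 9 encode C-type lectin-like receptors, which are membrane proteins that read stress ligands or MHC class I molecules on neighbouring cells. The exception is Ncr1 (NKp46), an activating receptor with immunoglobulin-like domains, so the name lectin-like does not cover it. Inhibitory receptors of the family carry a motif in their cytoplasmic tail that recruits phosphatases, whereas activating receptors have short tails and signal through adaptors such as DAP10 (Hcst), DAP12 (Tyrobp) and the Fc receptor gamma chain (Fcer1g). NK cells display them in varied combinations, and some CD8 T cells take up several of them after activation.

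RNA of every one of the 10 genes was higher in each WT-labelled library than in each KO-labelled library. A library is named by its label and replicate number, such as WT 2 or KO 3, and series of values within a label follow replicates 1, 2 and 3. Levels are given in FPKM, fragment counts scaled to gene length and to library size, as deposited. Together the 10 genes held 29040, 7726 and 26611 recovered reads in WT, but 112, 45 and 240 in KO. In bulk RNA, fewer cells of a type and less RNA per cell cannot be told apart, and the values do not show which cells carried the receptor RNA.

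**Figure D1:**
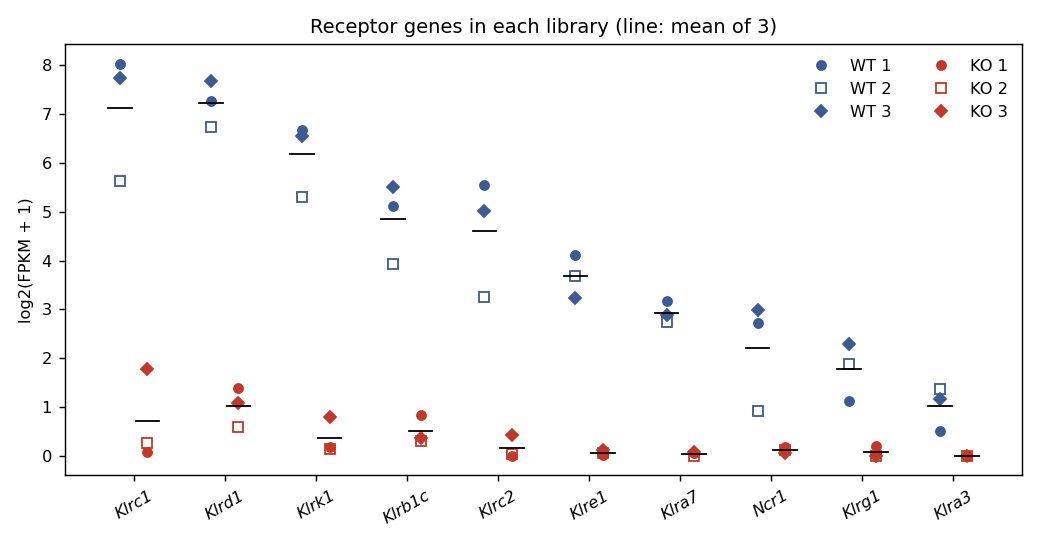
The 10 receptor genes (horizontal axis) in each library, as log2(FPKM + 1) on the vertical axis. Blue symbols are the 3 WT-labelled and red symbols the 3 KO-labelled libraries, and black lines are means of 3; the groups do not overlap in any of the 10 genes, and Klrc1, Klrd1 and Klrk1 stand highest in WT.

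The genes lie in a cluster, the NK gene complex, on chromosome 6 (build GRCm38), apart from Ncr1 on chromosome 7. Klre1, Klrd1, Klrk1, Klrc2 and Klrc1 occupy 101 kb, and the 8 genes from Klrb1c to Klra3 span 1559 kb. Klrg1 lies 6496 kb away from Klrb1c on the same chromosome. Because these neighbours were low together in KO, the stretches around their starts were read from RefSeq (GRCm38.p6), from 250 bases before to 50 bases after each start. Windows were found for 8 of the 10 genes and not for Klrd1 and Klrg1. The windows below belong to the genes with the largest falls of log2(FPKM + 1) among those matched, and to Ncr1, which lies on another chromosome. Each is written 5′ to 3′ on the strand of the gene, and capitals mark matches on either strand to 1 of 3 short words: TGTGGT, bound by RUNX factors, TCACAC, of the T-box type, and AGGAAG, of the ETS type.

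Klrk1 (chr6:129623815-129624114, minus strand): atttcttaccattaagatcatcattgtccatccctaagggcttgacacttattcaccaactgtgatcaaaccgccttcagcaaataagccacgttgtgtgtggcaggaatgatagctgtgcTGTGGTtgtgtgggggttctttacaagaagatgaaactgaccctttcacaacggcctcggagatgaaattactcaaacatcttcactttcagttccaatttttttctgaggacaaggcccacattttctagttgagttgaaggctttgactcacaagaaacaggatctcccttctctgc
Klrc1 (chr6:129678924-129679223, minus strand): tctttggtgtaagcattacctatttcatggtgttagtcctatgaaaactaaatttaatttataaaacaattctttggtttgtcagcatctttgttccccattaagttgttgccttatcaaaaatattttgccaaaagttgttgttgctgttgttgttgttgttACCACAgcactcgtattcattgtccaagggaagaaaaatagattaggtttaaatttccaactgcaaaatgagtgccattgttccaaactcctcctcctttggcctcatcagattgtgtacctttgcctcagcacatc
Klrc2 (chr6:129660547-129660846, minus strand): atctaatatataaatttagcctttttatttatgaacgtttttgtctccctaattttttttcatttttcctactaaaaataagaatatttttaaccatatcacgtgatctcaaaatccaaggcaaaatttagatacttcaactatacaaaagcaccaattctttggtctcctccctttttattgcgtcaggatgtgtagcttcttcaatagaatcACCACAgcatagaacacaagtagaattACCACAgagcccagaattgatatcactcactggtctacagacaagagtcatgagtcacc
Ncr1 (chr7:4337474-4337773, plus strand): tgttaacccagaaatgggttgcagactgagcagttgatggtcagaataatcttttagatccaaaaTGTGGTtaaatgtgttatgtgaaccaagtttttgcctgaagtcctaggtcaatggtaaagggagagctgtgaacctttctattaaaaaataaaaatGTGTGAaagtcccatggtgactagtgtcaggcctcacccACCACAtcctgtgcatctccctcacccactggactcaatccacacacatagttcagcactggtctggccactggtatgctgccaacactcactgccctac

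The RUNX-type word TGTGGT occurred in 6 of the 8 windows, once in Klrk1, at position -129 from the start, once in Klrc1, at -87, and 2 times each in Klrc2 and Ncr1. It occurred in 16.8% of 32851 windows of the same length, which were not matched for base composition. Klrc2, Klre1, Klra7 and Ncr1 had 2 windows each, of which the window nearest the annotated 5′ end of the gene was used. The starts used for Klrb1c and Klre1 lie 574 and 308 bases from that end. The T-box word TCACAC was present in the Ncr1 window, at -89, and in that of Klre1, and in 14.5% of all windows. The ETS word AGGAAG was found in the window of Klrb1c alone, compared with 35.4% of all windows. Klra3 and Klra7 had none of the 3 words. Their windows were the most alike of all pairs, with 76.5% identical bases over 230 aligned columns. A match of letters is a description and does not show a bound site.

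Klrd1 and its partners form the CD94/NKG2 receptors. Klrd1 (ENSMUSG00000030165, chr6:129591782-129598775, plus strand) encodes CD94, the shared chain that has no signalling tail of its own. Its FPKM was 152, 106 and 204 in WT, and 1.63, 0.496 and 1.12 in KO. The lowest WT library was therefore far above the highest KO library. Means were 154 ± 49.2 (SD, n = 3) in WT and 1.08 ± 0.570 (SD, n = 3) in KO. The log2 fold change of FPKM + 1, KO minus WT, was -6.21 ± 0.35 (SE; limma, adjusted p = 0.000259). Summed over libraries, 8663 reads in WT stood against 72 in KO, a 142-fold ratio with a 95% counting interval of 113 to 182.

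Klrc1 (ENSMUSG00000030167, chr6:129666015-129678973, minus strand) encodes NKG2A, which pairs with CD94 to make an inhibitory receptor. Its FPKM was 261, 48.3 and 213 in WT, and 0.0541, 0.192 and 2.44 in KO. The level was uneven in both groups, with WT 2 far under the other WT libraries and KO 3 far over the other KO libraries, yet the groups did not overlap. The mean was 174 ± 112 (SD, n = 3) in WT and 0.896 ± 1.34 (SD, n = 3) in KO, and the log2 fold change was -6.43 ± 0.76 (SE; limma, adjusted p = 0.00190). Of 86 Klrc1 reads in KO, 78 were in KO 3.

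Klrc2 (ENSMUSG00000052736, chr6:129647496-129660689, minus strand) encodes NKG2C, the activating counterpart that also pairs with CD94. Its level was 45.6, 8.55 and 31.5 FPKM in WT, and 0, 0.0328 and 0.353 FPKM in KO. WT 2 was again the lowest WT library and KO 3 the highest KO library. The log2 fold change was -4.45 ± 0.59 (SE; limma, adjusted p = 0.00287). The ratio of Klrc2 to Klrc1 lay in a narrow range in WT, at 0.174, 0.177 and 0.148, and was 0.144 in KO 3, the KO library with the most reads of both. Klrc1 exceeded Klrc2 in every library of both labels. Part of each sequence is shared: 14.6% of the 100-base stretches of Klrc1 transcripts also occur in Klrc2 transcripts, so reads from those stretches could have been split between the genes or lost.

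The ratio of Klrc1 to Klrd1, by contrast, ranged from 0.456 in WT 2 to 1.72 in WT 1, with 1.04 in WT 3. Within WT the order of these chains was not fixed: Klrc1 was above Klrd1 in 2 of 3 libraries.

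Klre1 (ENSMUSG00000050241, chr6:129577905-129585827, plus strand) encodes a chain that pairs with the Klri1 or Klri2 product to give an inhibitory or an activating receptor. Its FPKM was 16.4, 11.9 and 8.36 in WT, and 0.0154, 0.0364 and 0.0889 in KO. The KO values rest on 1, 2 and 5 reads. The log2 fold change was -3.61 ± 0.28 (SE; limma, adjusted p = 0.000480). Of its partners, Klri2 had 2.47, 0.565 and 1.40 FPKM in WT and at most 0.0317 in KO, whereas Klri1 had no reads in any library. Klri1, Klri2 and Klrc3 were named after their values were seen.

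The activating receptors outside the CD94 group were low in KO too. Klrk1 (ENSMUSG00000030149, chr6:129610323-129623864, minus strand) encodes NKG2D, which recognises stress-induced relatives of MHC class I and is found on NK cells and activated CD8 T cells. Its FPKM was 101, 38.7 and 92.3 in WT, and 0.135, 0.0973 and 0.735 in KO. As for Klrc1, the lowest WT value was that of WT 2 and the highest KO value that of KO 3. Means were 77.2 ± 33.7 (SD, n = 3) and 0.322 ± 0.358 (SD, n = 3), and the log2 fold change was -5.80 ± 0.43 (SE; limma, adjusted p = 0.000410). In summed reads, 24710 in WT against 114 in KO gave a 256-fold ratio (95% counting interval 213 to 311).

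Klrb1c (ENSMUSG00000030325, chr6:128778485-128789215, minus strand) encodes NK1.1, the activating receptor by which NK and NKT cells of C57BL/6 mice are stained. Its FPKM was 34.0, 14.3 and 44.7 in WT, and 0.780, 0.236 and 0.294 in KO. The highest KO library here was KO 1, not KO 3. The log2 fold change was -4.36 ± 0.45 (SE; limma, adjusted p = 0.00118). Klrb1c shares 13.9% of its exon bases with the overlapping model Gm44511 on the same strand, where reads cannot be assigned to 1 gene.

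Ncr1 (ENSMUSG00000062524, chr7:4337724-4345164, plus strand) stood at 5.55, 0.884 and 6.95 FPKM in WT, and at 0.139, 0.0825 and 0.0403 FPKM in KO. With WT 2 under 1, it was not among the genes tested. Reads came to 132, 16 and 166 in WT and to 4, 2 and 1 in KO, a 53.0-fold ratio with a 95% counting interval of 25.4 to 133. Without the filter on low values the log2 fold change was -2.09 ± 0.58 (SE; limma, adjusted p = 0.0720), so the difference was not called, although the groups did not overlap. NKp46 is a defining protein of NK cells. Its RNA was 0.0364, 0.00835 and 0.0340 times that of Klrd1 in WT, and 0.0853, 0.166 and 0.0362 times in KO, from the few reads given above.

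The remaining inhibitory receptors were scarce in WT and nearly or wholly without reads in KO. Klra7 (ENSMUSG00000067599, chr6:130218605-130233322, minus strand) and Klra3 (ENSMUSG00000067591, chr6:130323289-130337574, minus strand) encode Ly49G and Ly49C, which bind classical MHC class I. Klra7 stood at 8.04, 5.65 and 6.38 FPKM in WT, and at 0.0424, 0 and 0.0491 FPKM in KO. It was the most even of the 10 genes within WT, with a mean of 6.69 ± 1.23 (SD, n = 3). Its log2 fold change was -2.89 ± 0.21 (SE; limma, adjusted p = 0.000386), and 366 WT reads stood against 2 KO reads, a ratio of 216 whose counting interval ran from 59.5 to 1793.

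Klra3 reached 0.419, 1.58 and 1.25 FPKM in WT, from 8, 23 and 24 reads, and no reads in KO. It was under the filter and was at least 21.7-fold higher in WT than the floor of 3 reads over the KO group. Without the filter its adjusted p was 0.0438 by limma. Klrg1 (ENSMUSG00000030114, chr6:122270596-122282882, minus strand) encodes an inhibitory receptor for cadherins that marks late effector T and NK cells. Its FPKM was 1.19, 2.71 and 3.92 in WT, and 0.152, 0 and 0 in KO, where all 4 reads were in KO 1. The log2 fold change was -1.71 ± 0.31 (SE; limma, adjusted p = 0.00945), and the ratio of reads was 46.4 (95% counting interval 17.8 to 172). For Klrg1 and Klra3 the lowest WT library was WT 1, and for Klre1 it was WT 3, whereas for the other 7 genes it was WT 2.

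By limma, 8 of the 10 genes passed the filter (FPKM 1 or more in 3 or more of the 6 libraries), and these 8 were called lower in KO, where 13.3% of the 13393 genes tested were called lower and 13.1% higher. These 8 passed through their WT values, so their count and median are a description and no support. With no filter, 9 of the 10 were called lower, with Ncr1 the exception, against 6.41% of 28116 genes with any reads. All 10 had groups that do not overlap, compared with 18.1% of genes with any reads that lay wholly lower in KO. Ordered by the fall of log2(FPKM + 1) among the genes tested, Klrc1 was number 24, Klrd1 31 and Klrk1 48, and Klrg1 was number 1348. For genes near 0 in KO this order depends largely on the WT level. Klrc2 was number 195 and Klre1 number 357. By summed reads their ratios were 247 and 270, the latter from 8 KO reads, against 142 for Klrd1. The ratio was 71.3 for Klrb1c and 46.4 for Klrg1. The median log2 fold change of the 8 was -4.40, beside 0.086 over all genes tested.

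Within WT the mean levels, which are per length, ran from Klrc1 and Klrd1 through Klrk1, Klrb1c, Klrc2, Klre1, Klra7, Ncr1 and Klrg1 to Klra3. Of the neighbours in this order, Klrd1 over Klrk1 and Klre1 over Klra7 had ranges that did not overlap. The other neighbours overlapped, although Klrk1 exceeded Klrb1c and Klrg1 exceeded Klra3 in 3 of 3 libraries. Klrd1 was above 97.9%, 94.1% and 98.5% of the genes tested in WT, and above 18.1%, 7.14% and 12.5% in KO.

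**Figure D2:**
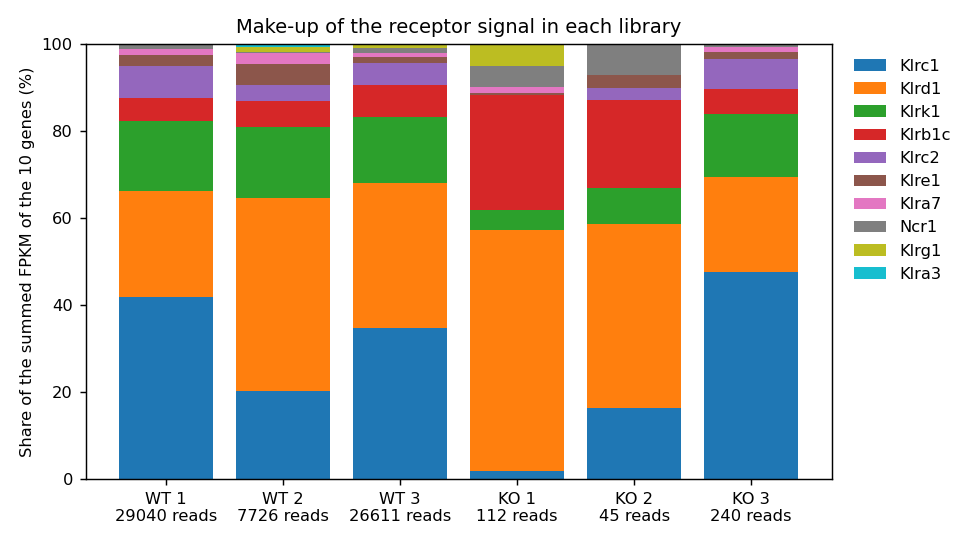
Share of each gene in the summed FPKM of the 10 receptor genes (vertical axis, %), for each library (horizontal axis, with the reads behind it). Klrk1 held 15.1% to 16.2% in the 3 WT libraries, while the KO bars rest on 45 to 240 reads and differ among themselves.

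The make-up of the receptor RNA was described as the share of each gene in the summed FPKM of the 10, which was 626, 238 and 612 in WT, and 2.95, 1.17 and 5.12 in KO. Klrk1 kept a near constant share in WT, at 16.1%, 16.2% and 15.1%. Klrc1 took 41.8% in WT 1 and 34.7% in WT 3 but 20.3% in WT 2, where Klrd1 took 44.4%. In KO 3, Klrc1 made up 47.7% and Klrd1 21.8%, a make-up nearer to WT 1 than to the other KO libraries. KO 1, with 112 reads, had 55.4% Klrd1, 26.4% Klrb1c and 1.83% Klrc1. The KO libraries thus held different mixtures of a small residue.

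Relative to Cd3e, a chain of the T-cell receptor complex whose own level was not called by limma (log2 fold change 0.40, adjusted p = 0.505), Klrd1 RNA stood at 3.57, 4.69 and 3.40 in WT. In KO 1, KO 2 and KO 3 it stood at 0.0288, 0.0111 and 0.0208. The corresponding ratio for Klrk1 was 2.36, 1.71 and 1.54 in WT, and at most 0.0137 in KO. Relative to this T-cell gene, too, the groups did not overlap for either receptor. Among the WT libraries Cd3e was lowest in WT 2, whereas Cd3d and Cd3g, other chains of the complex, were highest there. Cd3d had 89.8, 561 and 109 FPKM in WT, and Cd3g had 42.2, 158 and 51.4. The order of the WT libraries in these ratios therefore depends on the chain chosen. Ratios to Cd3d and Cd3g were not computed.

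The 5 protein-coding genes outside the 10 whose profile over the 6 libraries was most like that of Klrd1 were Tagap, Neurl3, Gimap3, Dusp1 and Il18r1. Likeness was the root mean square difference of centred log2(FPKM + 1), which was 0.211 for Tagap and 0.364 for Il18r1. Among the receptors it was 0.428 for Klrk1, 0.811 for Klrc1 and 2.29 for Klrg1, so Klrk1 was the nearest of the other receptors tested. The genes between them gave 0.320 for Neurl3, 0.333 for Gimap3 and 0.337 for Dusp1. Tagap, which encodes a GTPase-activating protein of activated T cells, had 87.6, 64.1 and 131 FPKM in WT, and 0.383, 0.165 and 0.645 in KO. Gimap3, a GTPase gene of lymphocytes, had 365, 325 and 622 FPKM in WT, and 4.75, 1.31 and 4.22 in KO. Dusp1, which encodes a MAP kinase phosphatase, had 220, 143 and 201 FPKM in WT, and at most 2.40 in KO. All 5 were lowest in WT 2 among the WT libraries, as Klrd1 was. They were picked for likeness to Klrd1 over these same libraries. Their shared pattern therefore follows from the choice and is no support. Il18r1, a receptor chain for interleukin 18, had 93.7, 39.3 and 132 FPKM in WT and at most 0.658 in KO.

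Most other receptor genes of the complex were low in KO as well, but most were scarce in WT too. Of 18 other lectin-like receptor genes of the family, 17 were in the table and 5 passed the filter. Of these 5, 4 were called lower and none higher. The median log2 fold change of FPKM + 1 was -1.79. It was -5.59 with the 3 genes without KO reads set at the log2 of their bound on the ratio of reads, a scale with no pseudocount, so the 2 medians are not on the same scale. Klra6, of the Ly49 family, had 3.60, 2.13 and 1.85 FPKM in WT and no reads in KO, so it was at least 48.1-fold higher in WT (limma, adjusted p = 0.00241). Klra8, the activating receptor Ly49H, had 2.42, 4.98 and 1.04 FPKM in WT and no reads in KO (limma, adjusted p = 0.0163). Klra2, a Ly49 gene also used by myeloid cells, had 10.6, 4.03 and 2.79 FPKM in WT and 0.0566, 0.0669 and 0.262 in KO (limma, log2 fold change -2.43, adjusted p = 0.00783).

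Klra17, named after its values were seen, encodes the plasmacytoid dendritic cell receptor Ly49Q, and had 13.3 FPKM in WT 2 against 4.67 and 1.41 in WT 1 and WT 3, with no reads in KO (limma, adjusted p = 0.0241). Klrb1f was the gene that passed the filter without a call, with 2.98, 2.10 and 5.77 FPKM in WT and 1.83, 1.41 and 2.73 in KO (limma, adjusted p = 0.296). Klrc3, the neighbour of Klrc2, had 48.9 FPKM in WT 1 and 31.2 in WT 3 but no reads in WT 2. It shares 16.0% of its 100-base stretches with Klrc2. The calls of Klra8 and Klra17 were lost when any KO library was left out.

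**Figure D3:**
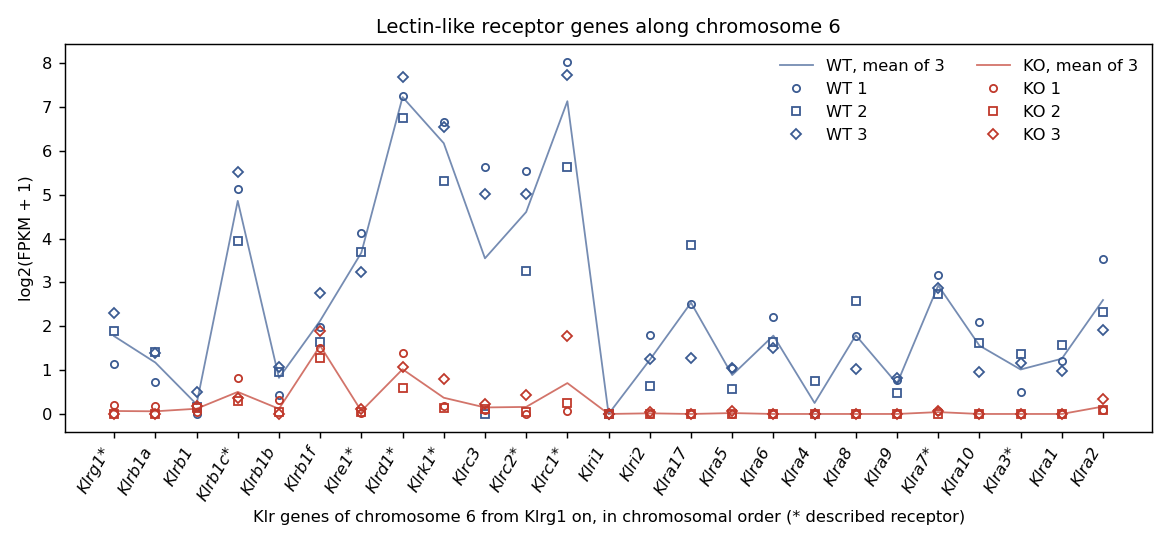
Lectin-like receptor genes of chromosome 6 from Klrg1 on, in chromosomal order (horizontal axis, evenly spaced; stars mark described genes), with log2(FPKM + 1) in each library (vertical axis). Lines join group means; WT is highest between Klrd1 and Klrc1, Klrb1f has the highest KO mean, and Klrc3 is at 0 in WT 2.

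The partners that carry the signal fell in part. Of 18 adaptor and signalling genes, all tested, 7 were called lower and none higher, with a median log2 fold change of -0.99. Hcst, whose product DAP10 carries the NKG2D signal, had 119, 540 and 144 FPKM in WT, and 27.9, 28.4 and 26.0 in KO. Its log2 fold change was -2.89 ± 0.58 (SE; limma, adjusted p = 0.0132). The KO libraries thus kept 26.0 FPKM or more of Hcst, against at most 0.735 FPKM of Klrk1. The ratio of Klrk1 to Hcst was 0.847, 0.0717 and 0.641 in WT and at most 0.0283 in KO.

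Tyrobp, which encodes DAP12, had 254, 1072 and 57.8 FPKM in WT and 6.12, 8.09 and 7.17 in KO (limma, log2 fold change -4.96, standard error 0.97, adjusted p = 0.0120). Fcer1g had 106, 483 and 19.8 FPKM in WT and 2.21, 2.69 and 4.41 in KO (limma, log2 fold change -4.68, standard error 1.06, adjusted p = 0.0200). These adaptors are abundant in neutrophils and monocytes. Both were highest in WT 2, which among the 10 receptors held for Klra3 alone. They are also short genes, of 667 and 874 bases. In WT 2, 17.1% of reads fell in genes under 1000 bases, against 3.11% to 5.01% elsewhere. Which cells carried the adaptor RNA, and whether gene length bears on these values, was not tested. Inpp5d, the phosphatase SHIP1 recruited by inhibitory receptors, had 36.2, 21.7 and 27.2 FPKM in WT and 6.31, 5.23 and 5.61 in KO (limma, log2 fold change -2.10, adjusted p = 0.00234). Plcg2, a phospholipase downstream of DAP12, gave -4.13 (limma, adjusted p = 0.00300).

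The signalling chain CD3 zeta and the kinases were not called. Cd247 had 24.9, 40.5 and 30.6 FPKM in WT and 32.0, 29.2 and 28.4 in KO, so the groups overlapped (limma, log2 fold change -0.072, adjusted p = 0.869). Zap70 gave -0.54 (limma, adjusted p = 0.227) and Syk -1.41 (limma, adjusted p = 0.152), and both overlapped. A p above the threshold does not show that the levels were alike. The calls of Hcst and Fcer1g were lost when any KO library was left out, that of Fcer1g also without WT 1 and with voom on the recovered reads (adjusted p = 0.0541), and that of Tyrobp without KO 1 or KO 3. Without a KO library the count of 7 fell to 2 or 3, depending on the library.

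**Figure D4:**
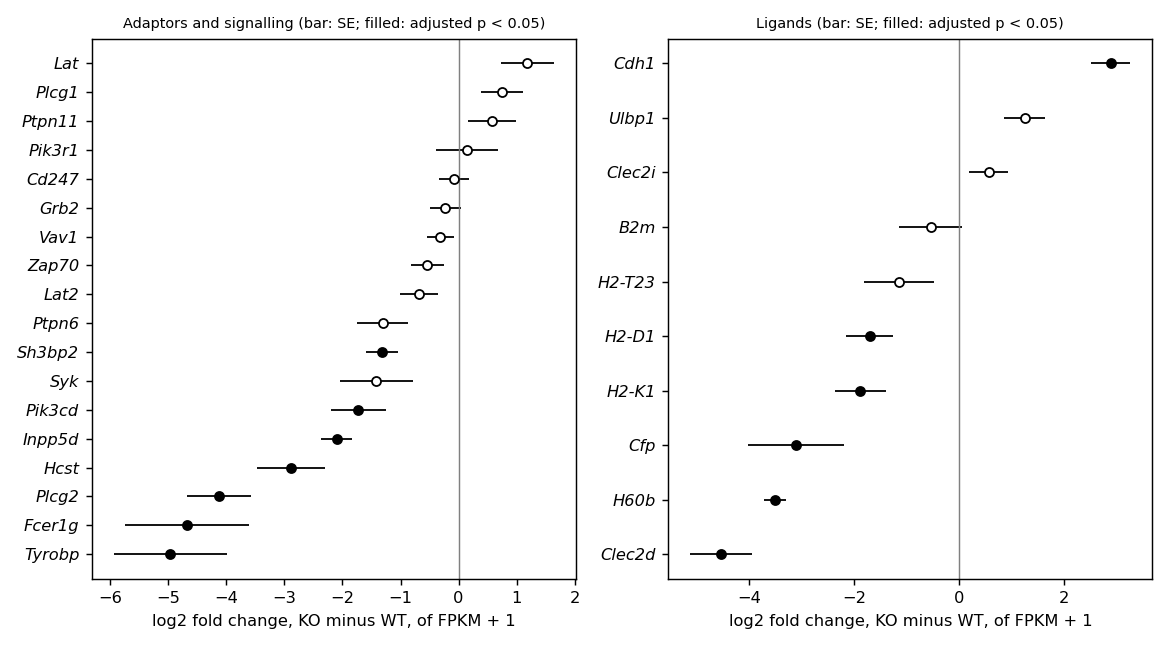
Log2 fold change of FPKM + 1, KO minus WT (horizontal axis), for adaptor and signalling genes (left) and ligands (right) that passed the filter. Points are limma estimates over 3 libraries a group, bars are standard errors, and filled points have an adjusted p under 0.05; Tyrobp and Fcer1g lie lowest on the left, and Cdh1 is the filled ligand to the right of 0.

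The ligands of the receptors went both ways. Of 21 listed ligand genes, 17 were in the table and 10 were tested, of which 5 were called lower and 1 higher, with a median log2 fold change of -1.42. The count of 5 lower fell to 2 without WT 1 or without any KO library, and to 3 without WT 3, with no filter, under quantile normalization or TPM, or with the replicate number as a block. H2-T23 encodes Qa-1, the ligand of the CD94/NKG2 receptors. It had 37.0, 177 and 33.1 FPKM in WT and 33.1, 19.0 and 30.3 in KO, and was not called (limma, log2 fold change -1.15, adjusted p = 0.262). WT 2 set this estimate, which was -0.38 without it. H2-K1 and H2-D1, the classical class I genes read by Ly49 receptors, gave -1.88 (limma, adjusted p = 0.0310) and -1.70 (limma, adjusted p = 0.0335), and each call was lost in 9 of 18 alternative settings. B2m, the light chain of class I, gave -0.54 (limma, adjusted p = 0.553), and its sign turned under quantile normalization and rescaling to TPM.

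NKG2D has several ligands, of which H60b and Ulbp1 were tested. H60b had 11.9, 9.82 and 11.9 FPKM in WT and 0.0443, 0 and 0.154 in KO (limma, log2 fold change -3.51, adjusted p = 0.000271). Ulbp1, which encodes MULT1, had 8.24, 2.83 and 5.80 FPKM in WT and 10.3, 14.3 and 17.6 in KO, higher in each KO library but not called (limma, log2 fold change 1.24, adjusted p = 0.0606). Raet1e was listed at 0.180 FPKM or less in every library. Clec2d, which encodes a ligand of some NKR-P1 receptors, had 69.6, 257 and 56.6 FPKM in WT and 2.66, 3.14 and 4.56 in KO (limma, log2 fold change -4.54, adjusted p = 0.00255).

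Cdh1 encodes E-cadherin, the ligand of Klrg1, and was the ligand called higher in KO. It had 4.99, 2.34 and 5.47 FPKM in WT and 42.1, 24.8 and 46.0 in KO (limma, log2 fold change 2.89, standard error 0.37, adjusted p = 0.00264). Receptor and ligand RNA of this pair thus stood on opposite sides of the comparison, as did those of Klrk1 and, without a call, Ulbp1. H60b, the other NKG2D ligand tested, was lower in KO, as Klrk1 was, and the other called ligands were lower too.

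Of the markers of other cells, those of NK cells, neutrophils and monocytes were mostly lower in KO, as the receptors were, and their part in the result was not tested. Of 20 NK-cell markers outside the lectin receptors, 16 were tested, 12 called lower and 2 higher, with summed levels of 2354 to 5975 FPKM in WT and 642 to 751 in KO. Tbx21 and Eomes, T-box factors of NK and effector T cells, were lower: Eomes had 35.6, 15.6 and 34.6 FPKM in WT and 0.465, 0.0153 and 0.329 in KO (limma, log2 fold change -4.47, adjusted p = 0.000613). The cytotoxic granule genes Prf1 and Nkg7 gave -3.23 (limma, adjusted p = 0.00244) and -4.85 (limma, adjusted p = 0.00197), and S1pr5 gave -2.52 (limma, adjusted p = 0.000479). Against these, the granule protease Gzma had 12.9, 50.8 and 27.9 FPKM in WT and 587, 566 and 615 in KO (limma, log2 fold change 4.42, adjusted p = 0.00165). Khdc1a was the other marker called higher. Of the NK markers in the table, Xcl1 and Styk1, named after their values were seen, had no reads in any KO library.

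T-cell markers were present in both groups, with sums of 2175 to 5035 FPKM in WT and 1914 to 2567 in KO. Of 17, 4 were called lower, 2 higher and 11 not called, and without WT 2, where 26.8% of all genes were called higher, 8 were called lower and 6 higher. Cd8a was not called (limma, log2 fold change 0.72, adjusted p = 0.251). Trac, the alpha chain constant gene, had 196, 292 and 226 FPKM in WT and 41.8, 15.8 and 7.04 in KO (limma, log2 fold change -3.72, adjusted p = 0.00596). Of the beta chain constant genes, Trbc1 gave -7.73 (limma, adjusted p = 0.000672). Trbc2, named after its values were seen, was not called (limma, log2 fold change 0.38, adjusted p = 0.671). It had 311, 937 and 366 FPKM in WT and 782, 651 and 464 in KO. Cd4, a co-receptor gene, was higher in KO at 4.67 (limma, adjusted p = 0.000415). Of gamma delta and NKT markers, 4 of the 6 tested were higher in KO and none lower, among them Sox13 and Tcrg-C4.

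Neutrophil markers were lower in KO for 12 of 12 genes, with sums of 6820 to 95463 FPKM in WT and 93.6 to 288 in KO. Among them S100a8 gave -7.31 (limma, adjusted p = 0.00502). Monocyte and macrophage markers were called lower for 6 of 10 tested, with sums of 620 to 5079 in WT and 19.4 to 35.8 in KO. B-cell markers summed to 1110 FPKM in WT 2, 14.9 in WT 1 and 21.3 in WT 3, against 2.20 to 2.79 in KO. Erythroid markers summed to 68148 FPKM in WT 2 and to 140 and 537 in WT 1 and WT 3, against 17.0 to 127 in KO, with none of 9 called by limma. No gene of these 4 lists was without reads in KO altogether. Among the WT libraries, the sums of all 7 marker lists were highest in WT 2, whereas the receptor sum was lowest there. The gamma delta and NKT markers summed to 92.5 to 200 FPKM in WT and to 610 to 920 in KO. FPKM over all genes also summed highest in WT 2, at 897352 against 329893 in WT 1 and 305933 in WT 3. A list sum follows its most abundant genes, and single markers went both ways. Eomes, Prf1, Cd3e and Cd8a were lowest in WT 2 among the WT libraries, as most receptors were, while Nkg7 and Trac were highest there.

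**Figure D5:**
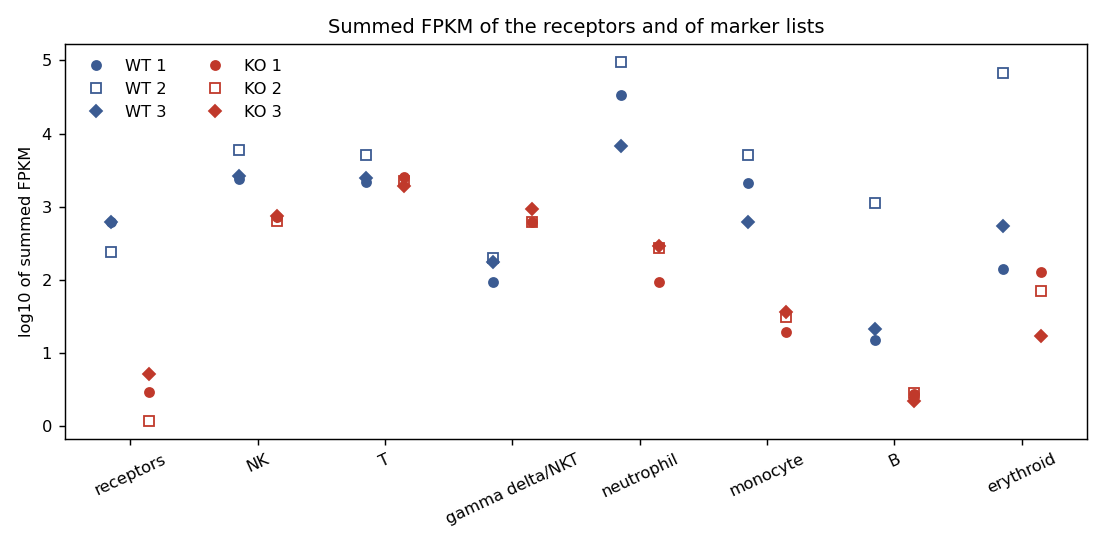
Log10 of the summed FPKM (vertical axis) of the 10 receptor genes and of 7 marker lists (horizontal axis), with a symbol for each library. The receptor sums of WT and KO are 238 to 626 and 1.17 to 5.12. WT 2 is the lowest WT library for the receptors. It is the highest WT library for each of the 7 lists, and for FPKM summed over all genes.

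The libraries held 13015823 to 18235095 recovered reads. WT 2 stood apart: its correlation with WT 1 and WT 3 over genes was 0.779 and 0.746, and 17.1% of its reads fell in genes under 1000 bases, against 3.11% to 5.01% elsewhere. Klrk1 and Klrc2, with gene lengths of 7183 and 5812 bases, are the longest of the 10. Whether gene length bears on their low values in WT 2 was not tested. Without WT 2, 8 receptors were again called lower, where 25.3% of all genes were. Their log2 fold changes were then -7.18 for Klrc1, -6.45 for Klrd1 and -6.24 for Klrk1. Phf6 itself had 7.47, 3.67 and 8.02 FPKM in WT and 6.73, 5.50 and 5.11 in KO (limma, log2 fold change -0.073, adjusted p = 0.893). A value per gene cannot show a deletion of part of it, so the RNA does not check the labels.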

How the data were processed

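Total RNA from BM was sequenced in 6 libraries, 3 for each Phf6 genotype. The authors extracted RNA with Trizol, built libraries with a NEBNext kit and read pairs on a NovaSeq instrument. The submitters' processing notes name HISAT2 2.0.5, featureCounts 1.5.0-p3 and the builds GRCm38 and mm10, with no role given. The annotation release and strand setting are not given in the sources used here. The deposited table holds FPKM per gene and library, computed by the authors, with gene lengths and coordinates. For 53462 of 54532 genes the coordinates equal the GRCm38 annotation.

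Reads were recovered as FPKM times gene length over the smallest step of a library, and 100% of them came out whole (tolerance 0.001). The size the authors divided by was 0.645 to 1.21 times the recovered total, so a scaling per library is part of the FPKM. Because the unit is not counts, the count model of the study was replaced by limma 3.58.1 in R 4.3.3 on log2(FPKM + 1), a scale that understates changes of low genes, with lmFit, eBayes with a trend, two-sided p-values and Benjamini-Hochberg adjustment over all genes tested. Genes with FPKM of at least 1 in at least 3 libraries were tested, and a call is an adjusted p under 0.05. With 3 libraries a group, the smallest p of an exact permutation test is 0.1. Counting intervals are 95% exact binomial and, like floors of 3 reads, cover counting error only, since PCR copies are not independent molecules. A gene with no reads over 1000 bases could still reach 0.161 to 0.255 FPKM per library. Replicates of a group all differed from each other by more than sampling noise.

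The 10 genes, the gene lists and the tests were chosen with earlier results of these data known. Genes named are the 10, Phf6, partners and ligands of the receptors, defining markers of cell types, the 3 genes of each list with the smallest p-values, and the 5 closest profiles to Klrd1. Some results for single genes under this rule are not reported here. Lists covered other receptors of the complex, adaptors, ligands, and NK, T, gamma delta and NKT, neutrophil, monocyte, B and erythroid markers.

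The model was tested on simulated data for the KO against WT comparison, with 13393 genes of which 200 were changed. It called 57% of changes of 2 and 82% of changes of 4 on the log2 scale, with 11 false calls. When nothing was changed it made 0 calls. Simulated errors were normal and independent between genes, without the shared deviation of WT 2 or values held at 0. These counts therefore do not measure the error rate in the real libraries. Same-numbered libraries did not deviate together (correlations 0.095, 0.10 and -0.15), so no pairing was used in the main model. Other software was SciPy 1.17.1, NumPy 2.4.6, Biopython 1.88, pandas 2.3.3 and Matplotlib 3.10.9 under Python 3.11.15. Alternatives changed the pseudocount, filter, scaling, weights, trend, block and libraries, and voom was run on the recovered reads. Scaling by the recovered totals was chosen after seeing the data.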

Additional observations from a re-analysis of the deposited data

How the results depend on the processing

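The fall of each receptor tested kept its direction and its call in every one of the 18 alternatives in which it passed the filter, with Ncr1 the exception among the 10, since it was tested only with no filter and missed the threshold. The count of receptors called lower ranged from 6 of 6 tested with a mean FPKM of at least 5 to 9 of 10 with no filter. Fitted with the replicate number as a block, 8 receptors were called, and 1469 genes were lower and 1207 higher, so the block changed no receptor's call.

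Over all genes, 1785 were called lower and 1754 higher. With a mean FPKM of at least 5 these were 1051 and 786, with array weights 4073 and 4388, and after rescaling to TPM 1081 lower. Leaving out 1 library gave 996 to 3383 lower and 938 to 3584 higher, the highest counts without WT 2. Higher calls made up 49.6% of calls, but 67.8% after rescaling to TPM and 62.1% with recovered totals, and over all genes the median log2 fold change moved from 0.086 to 0.86 and 0.40. The cause of these moves was not tested.

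Among single genes, Cd247 turned to 0.21 under quantile normalization, 0.76 under TPM, 0.19 with array weights and 0.33 with recovered totals, and ran from -0.23 to 0.11 when 1 library was left out, turning without WT 2. Zap70 turned to 0.29 under TPM. B2m turned to 0.77 under quantile normalization and 0.30 under TPM. Phf6 turned to 0.69 under TPM, 0.26 with recovered totals, 0.055 without WT 1 and 0.10 without WT 3, and was -0.37 without WT 2. None of these 4 was called in the main comparison. Klra8 lost its call without any KO library, and Klra17 without WT 1, without any KO library and with no filter. Depth limits Klra3, Klra7, Klrg1, Ncr1 and Klre1, which rest on 0 to 8 reads over the KO group.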
